A study of Mus musculus with 3 samples.

Results

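The insulin-like growth factor (IGF) axis was followed in MC3T3-E1, an established mouse line of calvarial preosteoblasts, through the transcripts of its ligands, receptors and binding proteins. Members were chosen by gene symbol: the ligands Igf1 and Igf2, the receptors Igf1r and Igf2r, and the binding proteins Igfbp2 to Igfbp7. Of these 10 genes, 8 were among the 15287 genes of the deposited table, including 4 of the 6 binding proteins, and Igfbp2 and Igfbp3 were not analysed here. All 8 reached 1 FPKM (fragments scaled to transcript length and library size) in at least 1 library, as did 11137 genes in all.

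RNA-seq covered 3 libraries of wild type cells, 1 for each condition. CTL cells had no special treatment, and the time they were kept in culture is not given in the sources used here. Ti cells were exposed for 24 h to titanium (Ti) particles, dosed at 10 μg per square centimetre of culture, and Ti+Se-Met cells to the same dose together with 5 μM selenomethionine (Se-Met), an organic form of selenium, over the same 24 h. The comparisons ask what Ti particles, a model of implant wear debris, do to osteoblast-lineage cells, and what adding Se-Met does. No library was from cells given Se-Met alone. Serum, which itself supplies IGFs, was in the maintenance medium, while the study's methods call the medium used during exposure incomplete and do not say whether it held serum. Since each condition had 1 library, differences between conditions lack a replicate check, and no p-values are given. Both comparisons with CTL rest on the same CTL library.

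IGF-I and IGF-II are secreted peptides that act through the IGF-I receptor, a tyrosine kinase that feeds the PI3K and AKT pathway. The IGF-II receptor carries no kinase and takes IGF-II to the lysosome. Binding proteins hold the peptides outside the cell, and proteases that cleave the binding proteins set the ligands free again. Osteoblasts make IGFs and store them in bone matrix, and the axis is known for its part in bone growth and formation.

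Promoter sequences are shown for the 2 ligands, whose transcripts differed most between libraries, and for Igfbp4, the most abundant binding protein, whose transcript differed little. Each is the 250 bases before the annotated start of transcription, read 5′ to 3′ on the gene's own strand, from RefSeq on GRCm38.p6. A window was matched for all 8 listed members, and Igf2 had 4 windows, of which the one farthest downstream is shown. Capitals mark matches, on either strand, to 7 motifs. The core promoter motifs searched were the TATA box, spelled TATAAA, and the CCAAT box, which is named by its own letters. The sites of general factors were the GC box of Sp1, spelled GGGCGG, and the E box with the letters CACGTG. The sites of regulated factors were the AP-1 site TGANTCA, then the core bound by C/EBP factors, TTGCNNAA, and lastly the site of FoxO factors, GTAAACA.
Igf1, chr10:87860861-87861110, plus strand: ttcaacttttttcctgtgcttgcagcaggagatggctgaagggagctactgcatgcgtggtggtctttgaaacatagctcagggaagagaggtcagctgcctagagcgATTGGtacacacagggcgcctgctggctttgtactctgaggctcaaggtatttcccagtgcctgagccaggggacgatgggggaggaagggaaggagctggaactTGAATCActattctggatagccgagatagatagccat
Igf2, chr7:142657497-142657746, minus strand: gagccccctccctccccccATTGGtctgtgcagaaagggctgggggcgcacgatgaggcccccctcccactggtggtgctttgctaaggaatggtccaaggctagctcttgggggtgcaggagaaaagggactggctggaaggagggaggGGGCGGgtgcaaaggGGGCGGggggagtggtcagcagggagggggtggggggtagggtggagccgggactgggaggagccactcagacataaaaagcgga
Igfbp4, chr11:99040994-99041243, plus strand: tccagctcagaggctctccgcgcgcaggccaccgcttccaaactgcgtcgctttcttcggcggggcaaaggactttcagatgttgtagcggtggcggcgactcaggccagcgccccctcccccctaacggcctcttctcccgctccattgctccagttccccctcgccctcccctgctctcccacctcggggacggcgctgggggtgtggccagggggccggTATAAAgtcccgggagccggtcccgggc

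The Igf1 window held a CCAAT box 142 bases before the start, on the other strand and so read as its reverse complement, and an AP-1 site 37 bases before it. The Igf2 window held a CCAAT box 231 bases before the start, on the other strand, and GC boxes 100 and 85 bases before it. GC made up 66.0% of its bases against 52.8% for Igf1. The Igf2 windows not shown had GC contents of 50.8%, 47.6% and 68.8%, and only the last of these held a match, a GC box. The Igfbp4 window held a TATA box 28 bases before the start and had a GC content of 69.2%. Over all 32851 windows of this length the median GC content was 52.4%, and 33.8% held a CCAAT box, 32.7% a GC box, 12.4% a TATA box and 6.75% an AP-1 site. The E box, in 6.02% of all windows, was found among the members only in Igf2r, at 48 and 7 bases before the start. The C/EBP core and the FoxO site, in 9.56% and 3.17% of all windows, had no match in the windows of the 8 members. A match describes letters in a window and is not a measured binding site.

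The table gave no counts, so depth was estimated from the size of 1 fragment in the low values of 453 short genes with 1 transcript. This put CTL at 14100000 fragments, Ti at 14700000 and Ti+Se-Met at 10500000, with other settings of the length correction giving 13100000 to 15100000, 13650000 to 15750000 and 9850000 to 11300000. The estimate is approximate, since 32.6% to 44.6% of the low values lay on a step, against 5.59% to 8.24% by chance. Intervals below are exact 95% ones computed from these fragments, so they reflect counting error alone and not the spread between cultures. Differences are given in log2(FPKM + 1), where the added 1 makes the difference of a low gene smaller, and folds and their intervals are of FPKM itself.

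In untreated cells 3 of the 4 listed binding proteins stood above the ligands, Igfbp5 being the exception, and the ligands stood above the type I receptor. Igfbp4, which encodes an inhibitor of IGF action, led at 420.11 FPKM and ranked 151 among all genes. Igfbp7 followed at 98.05 FPKM and Igfbp6 at 86.55 FPKM, and their counting intervals did not overlap. Igf2 at 58.46 FPKM and Igf1 at 58.15 FPKM could not be ordered, with intervals of 52.9 to 64.4 and 52.7 to 64.1, and Igf2r at 53.7 FPKM had an interval of 52.4 to 55.0 that overlapped both. These ligand intervals assume the shortest matched transcript of each gene. On the longest one, an alternative added after the data were seen, they were 56.6 to 60.4 for Igf2 and 56.6 to 59.7 for Igf1, which still overlapped each other but lay above Igf2r. Igf1r stood at 15.35 FPKM. Igfbp5, whose protein is stored in bone matrix, was the lowest member at 2.36 FPKM and ranked 10074.

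The order of the binding proteins and the place of the ligands differed in the other libraries. In Ti the order was Igfbp4, Igfbp6, Igfbp7, Igf2r, Igf1, Igf2, Igf1r and Igfbp5. The intervals of Igf1 and Igf2 overlapped there on the shortest transcripts, at 15.7 to 22.1 and 14.0 to 20.1 FPKM, but not on the longest, at 18.0 to 19.6 and 15.9 to 17.9 FPKM, so their order in Ti depends on the assumed length. In Ti+Se-Met the order was the same except that Igf2 stood above Igf1, and Igf2, Igf1 and Igf1r, at 17.56, 16.71 and 15.64 FPKM, had overlapping intervals on the shortest transcripts. On the longest, Igf2 and Igf1 still overlapped, and so did Igf1 and Igf1r, while Igf2 at 16.39 to 18.79 FPKM lay just above Igf1r at 14.94 to 16.37. The ligands thus ranked 1315 and 1326 among all genes in CTL, and between 4613 and 4997 in the other libraries.

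**Figure D1:**
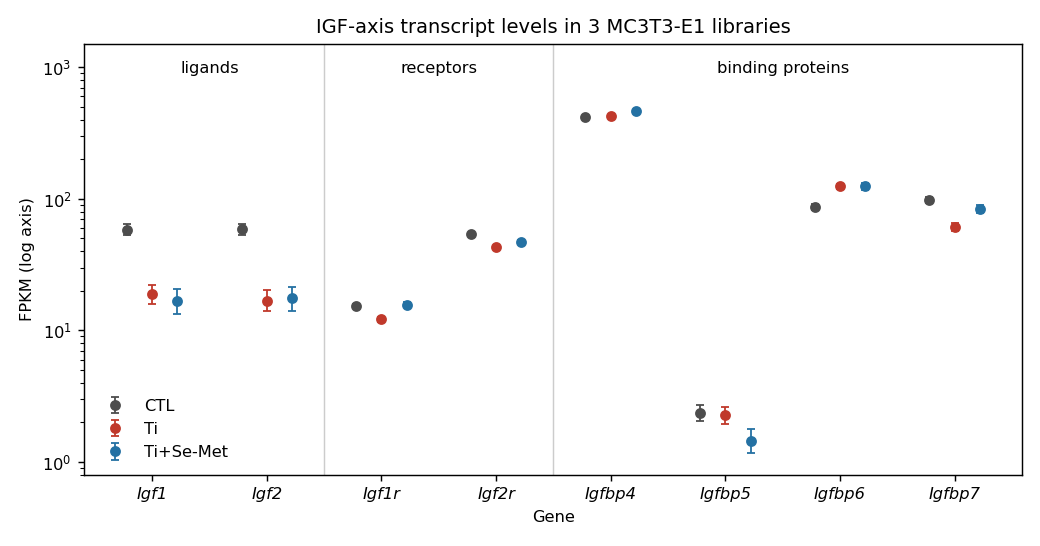
FPKM on a log axis of the 8 listed members in CTL (grey), Ti (red) and Ti+Se-Met (blue), 1 library each, with 95% counting intervals on the shortest transcript where wider than the point. Igf1 and Igf2 stand at about 58 FPKM in CTL and between 16.71 and 18.79 FPKM in the other libraries, while Igfbp4 lies between 420.11 and 465.63 FPKM.

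Both ligands fell in the libraries with Ti particles. Igf1 was at 58.15 FPKM in CTL, against 18.79 in Ti and 16.71 with Se-Met added, from about 411, 138 and 88 fragments on its shortest transcript. Igf1 fell by 1.58 on the log2 scale in Ti against CTL, a fold of 0.323 (interval 0.264 to 0.391), and 93 of the 11137 genes had a lower ratio. It fell by 1.74 in Ti+Se-Met against CTL, a fold of 0.287 (0.226 to 0.363), with 47 genes lower. Between Ti+Se-Met and Ti the fold was 0.889, with an interval that held 1 on the shortest transcript (0.675 to 1.17) and not on the longest (0.827 to 0.956), so whether it exceeds counting error depends on the assumed length.

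Igf2, an imprinted fetal growth factor expressed from the paternal copy, was at 58.46 FPKM in CTL, against 16.86 in Ti and 17.56 with Se-Met added. Only the CTL library was high. Igf2 fell by 1.74 on the log2 scale in Ti against CTL, a fold of 0.288 (0.234 to 0.354), with 58 genes lower. The drop in Ti+Se-Met against CTL was 1.68, a fold of 0.300 (0.237 to 0.377), with 54 genes lower. Between the 2 libraries with particles the fold was 1.04 (0.784 to 1.37, or 0.952 to 1.14 on the longest transcript), and both intervals held 1. The FPKM ratio of Igf1 to Igf2 was 0.995, 1.11 and 0.952 in CTL, Ti and Ti+Se-Met. The ligands thus kept close to equal FPKM in each library.

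A gene-level value pools isoforms, and how it was made from them is not given in the sources used here. The table listed 20 transcripts for Igf1, with matched lengths of 651 to 7052 bases, and Igf2 had matched lengths of 650 to 4722 bases. Intervals use the shortest transcript unless stated, which makes them wide. RefSeq places Igf1os over Igf1, Mir483 and Igf2os over Igf2, and Airn over Igf2r. It also places Gm51488 and Gm51487 over Igf1r and Gm34648 over Igfbp7. Whether the counting used strand is not stated, so reads of a gene and of an overlapping transcript cannot be told apart. Less RNA per cell and fewer cells that make the RNA also cannot be told apart in such bulk libraries.

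The receptors did not pass 2-fold in any comparison. Igf1r, the signalling receptor, measured 15.35 FPKM in CTL, then 12.16 in Ti and 15.64 with Se-Met added, so Ti was lowest and CTL and Ti+Se-Met lay close together. Its fold was 0.792 (0.747 to 0.841) in Ti against CTL, 1.29 (1.21 to 1.37) in Ti+Se-Met against Ti and 1.02 (0.959 to 1.08) in Ti+Se-Met against CTL. The log2 difference of that last pair, 0.03, was -0.17 after scaling to TPM, which sets every library to the same sum and moved the median of all genes in that pair from 0.01 to -0.17. Igf2r, the clearance receptor, was at 53.7, 42.7 and 47.1 FPKM, with Ti again lowest. Its folds were 0.795 (0.767 to 0.824) in Ti against CTL and 1.10 (1.06 to 1.15) in Ti+Se-Met against Ti. Igf2r per Igf1r was 3.498, 3.512 and 3.012 in the 3 libraries.

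No binding protein passed 2-fold, and the 4 listed ones did not move alike. Igfbp4 was the steadiest, with 420.11 FPKM in CTL, then 426.36 in Ti and 465.63 with Se-Met added. Its log2 differences from CTL, which were 0.02 for Ti and 0.15 for Ti+Se-Met, turned negative under TPM scaling (-0.21 and -0.05), so no direction is given for it. Igfbp6, whose protein prefers IGF-II, was at 86.55 FPKM in CTL and higher in the other libraries, at 124.55 and 124.27 FPKM. Its fold was 1.44 in both Ti and Ti+Se-Met against CTL (1.34 to 1.55 and 1.32 to 1.56), and 0.998 (0.927 to 1.07) between the libraries with particles.

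Igfbp7, which encodes a secreted relative with low affinity for IGFs, measured 98.05 FPKM in CTL, then 61.24 in Ti and 83.58 with Se-Met added. It was thus low in Ti and intermediate in Ti+Se-Met. Its fold was 0.625 (0.573 to 0.681) in Ti against CTL, 1.36 (1.240 to 1.502) in Ti+Se-Met against Ti and 0.852 (0.782 to 0.930) in Ti+Se-Met against CTL. RefSeq places Polr2b, a subunit gene of RNA polymerase II, over part of Igfbp7. Polr2b was at 38.57, 41.40 and 40.03 FPKM in the same libraries, and the part of its reads in the Igfbp7 values was not tested. Igfbp5 was at 2.36, 2.26 and 1.44 FPKM, from about 195, 195 and 89 fragments. The Ti+Se-Met value lay below the other two, at a fold of 0.637 (0.492 to 0.825) against Ti.

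**Figure D2:**
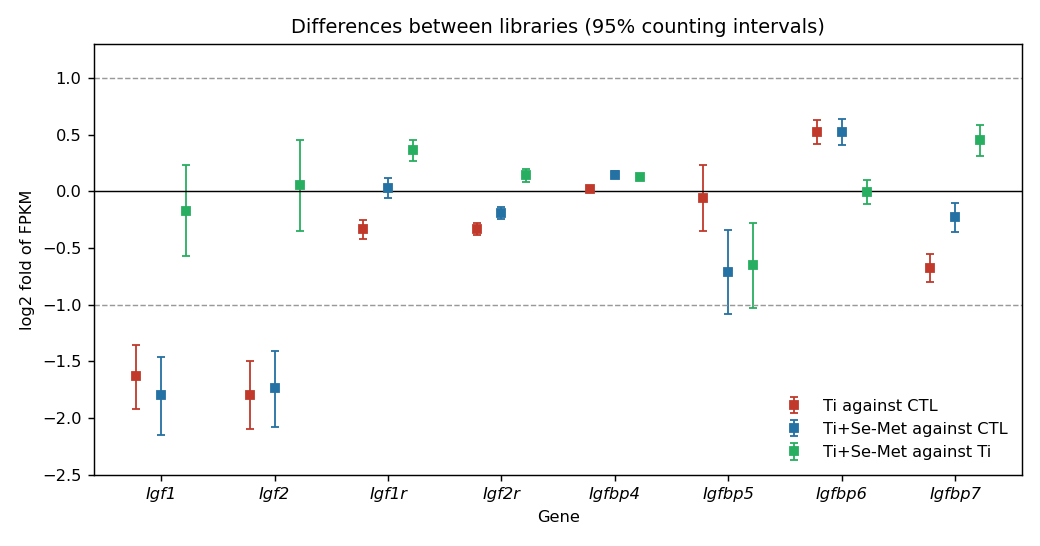
Log2 fold of FPKM for each of the 8 listed members in Ti against CTL (red), Ti+Se-Met against CTL (blue) and Ti+Se-Met against Ti (green), with 95% counting intervals on the shortest transcript; dashed lines mark 2-fold. Igf1 and Igf2 lie below the lower line in both comparisons with CTL, and no point lies beyond a line in Ti+Se-Met against Ti.

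Counted over the axis, 2 of the 8 listed members passed 2-fold in Ti against CTL, where 7.26% of the 11137 genes did. Both were ligands and both were lower, as were 3.64% of all genes. In Ti+Se-Met against CTL the same 2 ligands passed, against 5.96% of all genes in either direction and 3.32% in the lower one. In Ti+Se-Met against Ti no member passed, and 0.224% of all genes did. At 1.5-fold, 3 members passed in Ti against CTL, with Igfbp7 as the third, where 26.8% of all genes did. The 2 ligands alone passed in Ti+Se-Met against CTL, against 22.2% of all genes, and no member passed in Ti+Se-Met against Ti, against 2.14%. These counts use log2(FPKM + 1), which shrinks the low Igfbp5. With an added 0.1 in place of 1, Igfbp5 was at -0.68 in Ti+Se-Met against CTL and at -0.62 against Ti, past 1.5-fold in both.

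The median log2 difference of the 8 members was -0.32 for Ti beside CTL, -0.21 for Ti+Se-Met beside CTL and 0.09 for Ti+Se-Met beside Ti. Over all genes it was 0.08, 0.01 and -0.06. In Ti+Se-Met 5 of the 8 were higher than in Ti, a comparison in which 4289 of the 11137 genes were higher and 6804 lower. Igfbp6, at -0.003 there, turned positive under each other scaling. The all-gene median of that comparison was -0.035 under TPM, -0.002 under the median of ratios and 0.001 under the upper quartile. Both counts thus depend on the scaling. In Ti 6 of the 8 were lower than in CTL, where between 4616 and 5132 of the 11137 genes were lower. The 6 include Igfbp5 at -0.04, whose interval held 1, and 4616 of all genes lay below it. Igfbp4, at 0.02 with 5132 genes below it, turned negative under each other scaling, so the count depends on the scaling. The all-gene median for Ti against CTL became -0.04 under the upper quartile and -0.14 under TPM scaling. Under TPM 78.8% of all 2-fold calls there were lower, against 50.1% with the deposited values. The ligands' log2 difference then was -1.83 for Igf1 and -1.99 for Igf2.

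**Figure D3:**
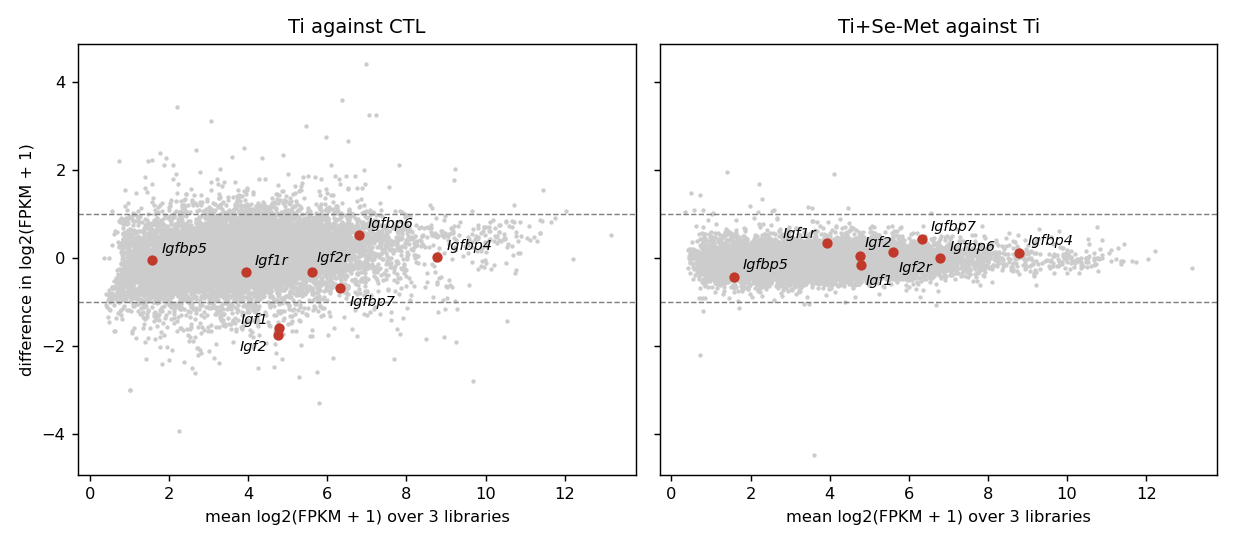
Difference in log2(FPKM + 1) against the mean log2(FPKM + 1) over the 3 libraries for 11137 genes (grey) and the 8 listed members (red), in Ti against CTL (left) and Ti+Se-Met against Ti (right); dashed lines mark 2-fold. Igf1 and Igf2 lie at -1.58 and -1.74 in the left panel and at -0.16 and 0.06 in the right one, where 25 of all genes pass 2-fold.

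Set beside their distance from CTL, the members differed in how far Ti+Se-Met lay back toward it. The share of the log2 difference between Ti and CTL that was absent in Ti+Se-Met was 108% for Igf1r (69.5% under TPM scaling), 66.0% for Igfbp7 and 42.7% for Igf2r. It was 3.20% for Igf2, -10.1% for Igf1, which lay farther from CTL, and 0.619% for Igfbp6, whose share turned negative under all 3 other scalings (-9.68% under TPM). Igfbp5 also lay farther from CTL, at a log2 difference of -0.04 in Ti and -0.46 in Ti+Se-Met, as did Igfbp4 with the deposited values, at 0.02 and 0.15, but not under TPM or the upper quartile. No share is given for these last genes, since their Ti difference was close to 0. The receptors and Igfbp7 lay nearer to CTL in Ti+Se-Met than in Ti under each scaling. Igf2 did too, by at most 6.68%. The share of all genes that lay nearer was not computed. In Ti+Se-Met against Ti, 248 genes had a higher ratio than Igfbp7 and 526 a higher one than Igf1r, while 615 had a lower one than Igfbp5. These shares share the Ti and CTL libraries, and a low Ti value alone moves them toward nearness.

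Within a library, ratios between members do not depend on how libraries are scaled, but they do depend on the length used for each gene. The ratios in the next sentences were chosen after values were seen, apart from the sums. The ligands summed to 116.61 FPKM in CTL, then 35.65 in Ti and 34.27 with Se-Met added, and the summed 4 binding proteins at 607.07, 614.41 and 674.92 FPKM. Summed binding protein FPKM per summed ligand FPKM was thus 5.21 in CTL, against 17.2 in Ti and 19.7 with Se-Met added. These are 3.31-fold and 3.78-fold higher than in CTL. How the isoforms of each ligand were pooled is not known, so this is not a ratio of transcript numbers. The binding protein sum differed from CTL by a fold of 1.01 in Ti and 1.11 with Se-Met added, and under TPM scaling by 0.863 and 0.969, so its direction depends on the scaling, while the ligand sum differed by 0.306 and 0.294. Igfbp4 made up 69.2%, 69.4% and 69.0% of the sum in the 3 libraries.

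Igf1 per Igf1r was 3.79 in CTL, then 1.55 in Ti and 1.07 with Se-Met added. Igf2 per Igf2r was 1.09, 0.395 and 0.373 in the same order. Both ligand-to-receptor ratios were highest in CTL, and the second differed little between the libraries with particles.

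**Figure D4:**
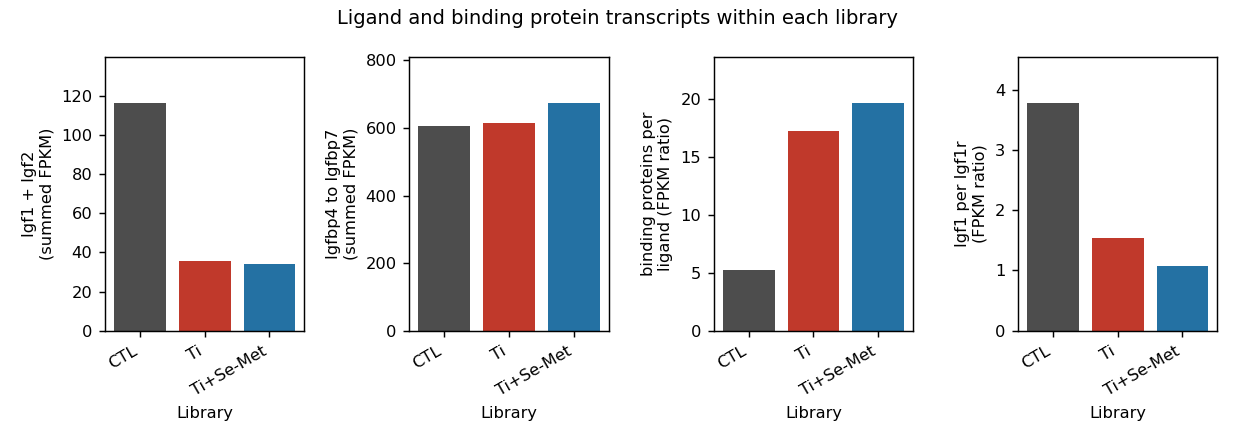
Summed FPKM of Igf1 and Igf2, summed FPKM of Igfbp4 to Igfbp7, the ratio of the second sum to the first, and the FPKM ratio of Igf1 to Igf1r, each as bars for CTL, Ti and Ti+Se-Met (1 library each, no error bars). The ligand sum is 116.61 in CTL and 35.65 and 34.27 in the others, and the ratio of binding proteins to ligands is 5.21, 17.2 and 19.7.

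The other genes of the pathway were read from 8 lists, which also hold relatives by domain and imprinted genes. These lists were chosen with earlier results of these data known, so shares over them are a description. Counting each gene once and leaving out the members, 88 of 115 genes passed the filter. Of these, 18 passed 2-fold in Ti against CTL, 6 of them higher and 12 lower, which is 20.5% beside the 7.26% of all genes. In Ti+Se-Met against CTL 17 passed, of which 8 were higher and 9 lower, or 19.3% beside 5.96%. None passed in Ti+Se-Met against Ti. Under TPM scaling 6 higher and 15 lower genes passed in Ti, or 23.9% beside 9.85% of all genes. In Ti+Se-Met 7 higher and 14 lower ones passed under TPM, or 23.9% beside 9.37%. The lower calls alone were 17.0% beside 7.76% of all genes in Ti, and 15.9% beside 7.35% in Ti+Se-Met. With the deposited values, the share past 2-fold in Ti ran from 0% of other axis genes to 44.4% of the IGFBP-domain relatives. For signalling genes downstream of the receptors it was 10.5%. Genes held by 2 lists count in both below.

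Among proteases of the binding proteins and their inhibitors, 6 of 10 genes were lower in Ti and 4 higher, and 1 passed 2-fold, lower. This was Pappa2, a metalloproteinase that cleaves IGFBP3 and IGFBP5, with 204.94 FPKM in CTL, then 41.66 in Ti and 38.87 with Se-Met added. It fell by 2.27 on the log2 scale in Ti, a fold of 0.203 (0.198 to 0.209), and by 2.37 in Ti+Se-Met. Pappa, which cleaves IGFBP4 and is named here after its values were seen, was at 4.52, 8.94 and 8.26 FPKM, just under 2-fold in Ti at 1.98 (1.805 to 2.17). Pappa2 per Pappa was 45.3 in CTL, then 4.66 in Ti and 4.71 with Se-Met added. The list's median difference from CTL was -0.24 in Ti.

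Of the relatives that share the IGFBP domain, 1 of 9 rose and 3 fell past 2-fold in Ti. Ccn3, a matricellular protein of the CCN family, was at 1164.18, 335.5 and 306.34 FPKM, a drop of 3.47-fold in Ti and 3.80-fold in Ti+Se-Met. Ccn5 went the other way, at 96.19, 295.09 and 228.1 FPKM, 3.07-fold higher in Ti. Kazald1, which encodes a bone-related secreted protein, was at 27.43, 12.52 and 11.01 FPKM and fell in both. Ccn1 was at 237.78, 98.84 and 173.27 FPKM, past 2-fold in Ti but not in Ti+Se-Met, and its log2 difference of Ti+Se-Met against Ti was 0.80. Ccn2 was low, at 0.83, 1.9 and 3.31 FPKM, and rose in Ti+Se-Met by 1.24 on the log2 scale. The list thus had genes in both directions, with a median of -0.18 in Ti.

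Signalling genes downstream of the receptors differed little as a list, with a median of 0.03 in Ti beside 0.08 over all genes, and 4 of 38 passed 2-fold. Pik3r1, the regulatory subunit of PI3K, fell in both, at 98.69, 45.8 and 36.79 FPKM. Eif4ebp1, a translation repressor that mTORC1 phosphorylates, was at 60.12, 195.07 and 160.58 FPKM, 3.24-fold higher in Ti. Socs2, which restrains growth hormone signalling, was at 28.1, 9.95 and 17.14 FPKM and fell in Ti. Socs3, a feedback inhibitor of cytokine signalling, was at 16.84, 41.26 and 45.85 FPKM and rose in both. In Ti+Se-Met, 2 of the 38 rose and 1 fell past 2-fold.

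Of 13 genes that FoxO factors are known to induce, 5 were higher and 8 lower in Ti, with a median of -0.07. Past 2-fold, 2 fell and none rose. Sesn1 was at 50.63, 18.05 and 18.99 FPKM and Sesn3 at 51.51, 19.39 and 24 FPKM, both encoding sestrins that restrain mTORC1. Gadd45a, a stress-response gene, was at 6.92, 13.7 and 16.18 FPKM. It was higher in both and past 2-fold only in Ti+Se-Met, where the same 2 sestrins fell past 2-fold.

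Among 10 known regulators of Igf1 in osteoblasts, 2 rose and 2 fell past 2-fold in Ti, with a median of -0.33. Cebpb and Cebpd, which encode C/EBP transcription factors, were at 39.01, 143.71 and 120.58 FPKM and at 15.3, 37.56 and 30.93 FPKM, and both rose in Ti. Ghr, the growth hormone receptor, was at 59.59, 24.09 and 30.6 FPKM and fell in Ti by 1.27 on the log2 scale. Nr3c1, the glucocorticoid receptor, was at 58.74, 27.93 and 28.33 FPKM and fell in both. In Ti+Se-Met, Cebpb rose and Nr3c1 fell past 2-fold, while Cebpd and Ghr were at 0.97 and -0.94 on the log2 scale, just short of it.

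Among the IGF2 mRNA-binding proteins and their regulators, 3 of 4 genes were higher in each comparison with CTL, and 1 passed 2-fold. Hmga2, a chromatin protein known to raise Igf2bp2, was at 27.05, 175.95 and 155.38 FPKM, 6.505-fold higher in Ti (6.14 to 6.89) and 5.74-fold higher in Ti+Se-Met. Of 15 imprinted network genes, 9 were listed and 8 passed the filter. All 8, Igf2 and Igf2r included, were lower in Ti than in CTL, 1 of them only at -0.01. Their median was -0.62, beside 0.08 over all genes. In Ti+Se-Met 7 were lower than in CTL and 1 higher. In each of these comparisons 3 passed 2-fold, all lower. Besides Igf2 these were Mest, at 155.25, 51.08 and 45.61 FPKM, and Dcn, the small proteoglycan decorin, at 822.73, 231.64 and 245.59 FPKM. No gene of the list of other axis genes passed 2-fold. Its highest, Lrp1, a receptor that takes up IGFBP3, was at 403.55, 365.46 and 431.95 FPKM, and the insulin receptor gene Insr, the only other that passed the filter, at 8.97, 8.58 and 8.22 FPKM. Igfals, for the acid-labile subunit of circulating complexes, was at 0.25 FPKM in CTL and listed at 0 in the others.

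**Figure D5:**
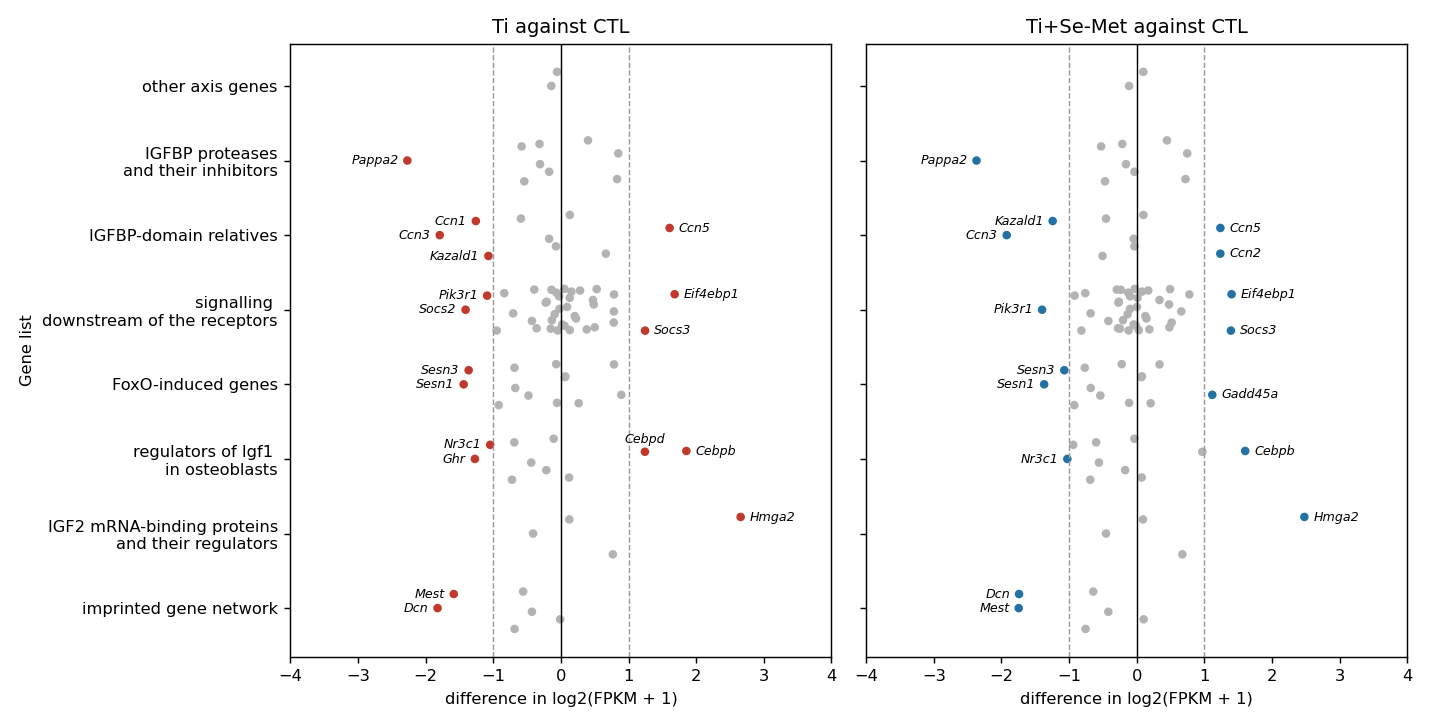
Difference in log2(FPKM + 1) for genes of 8 pathway lists that passed the filter, members left out, in Ti against CTL (left) and Ti+Se-Met against CTL (right); coloured, named points pass 2-fold and vertical offsets within a list only separate points. Hmga2 at 2.66 and Pappa2 at -2.27 lie farthest out in Ti, and signalling genes gather around 0.

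The genes whose profile over the 3 libraries lay nearest to a ligand were sought among 8729 genes with a mean of at least 5 FPKM, by Euclidean distance of centred log2(FPKM + 1). For Igf1 these were Mest, at a distance of 0.0044, and Gbp6, an interferon-induced GTPase gene, at 0.0347 with 34.71, 10.6 and 9.69 FPKM. For Igf2 they were Akap12, a scaffold protein of kinase A, at 0.00742 with 11.25, 2.66 and 2.83 FPKM, and Mdm4, a regulator of p53, at 0.0179 with 35.39, 9.81 and 10.43 FPKM. A profile over 3 libraries is short, and the likeness is a description.

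Markers of the cells were read beside the ligands. Of 10 osteoblast markers, 7 reached 1 FPKM in CTL and 6 in each of the others. Of the 7 that passed the filter, 6 were lower in Ti than in CTL, with 3 past 2-fold lower, 1 past 2-fold higher and a median log2 difference of -0.92. Col1a1 was at 1333.19, 354.2 and 481.63 FPKM and Runx2 at 26.77, 17.14 and 22.97 FPKM, while Sp7 and Bglap lay below 1 FPKM in all libraries, and Ibsp was listed at 0 in CTL and Ti+Se-Met. Spp1, which encodes osteopontin, was the 1 that rose, from 1261.19 FPKM in CTL to 3705.78 in Ti and 4659.49 with Se-Met added. The list summed to 5965, 5541 and 6933 FPKM, of which Spp1 was the main part in Ti and Ti+Se-Met. All 16 proliferation markers reached 1 FPKM in each library and summed to 297.16, 535.64 and 614.48 FPKM. In Ti 15 of 16 were higher than in CTL, and in Ti+Se-Met 16 of 16. Their median log2 difference from CTL was 0.77 in Ti and 1.02 in Ti+Se-Met, beside 0.08 and 0.01 over all genes. The part of these markers in the ligand values was not tested.

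For other cell types, 3 of 5 macrophage markers were listed and summed to 5.78, 17.0 and 15.33 FPKM, nearly all from Cd14, while Csf1r was between 0.02 and 0.1 FPKM. Of 5 chondrocyte markers 2 were listed, summing to 25.12, 36.49 and 40.01 FPKM, nearly all Sox9, with Col2a1 between 0.18 and 0.72 FPKM. Adipocyte (4 of 5 listed), endothelial (2 of 4) and skeletal muscle markers (4 of 5) summed to between 0.13 and 1.68 FPKM. Pparg, the defining adipocyte factor, was listed at 0 in CTL and Ti. Apart from Cd14 and Sox9, whose part in the ligand values was not tested, the highest of these markers was Des at 1.05 FPKM in CTL.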

How the data were processed

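RNA was extracted from MC3T3-E1 cells and sequenced as 3 libraries, 1 for each of CTL, Ti and Ti+Se-Met. Reads were aligned by the authors with HISAT2 and genes counted with HTSeq, per the study's methods. The submitters' processing notes also name StringTie, SAMtools and the build mm9, and which tool gave the values is not given in the sources used here. The authors deposited FPKM per gene, rounded to 2 decimals, with no scaling between libraries stated and no gene at 0 in all libraries. Of the value columns, 0 were left unmatched to a library. Gene coordinates on mm9 are not given, and promoter windows came from RefSeq on GRCm38.p6.

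The values were compared as differences in log2(FPKM + 1). Python 3.11.15 was used, with scipy 1.17.1 for intervals, pandas 2.3.3 and numpy 2.4.6 for tables, and matplotlib 3.10.9 for figures. Genes with at least 1 FPKM in at least 1 library were kept, and 2-fold or more was counted. Having 1 library for each condition left no test to run, and no count model was run on FPKM. Depth was estimated from steps of 1 fragment in single-transcript genes 350 to 1000 bases long, less 150 bases, with transcript lengths from GENCODE M21 matched by RefSeq accession for 95.3% of genes. Intervals of folds were exact conditional binomial and those of levels exact Poisson, at 95%, and cover counting error only. The steps were tested on simulated data made with the same lengths and the same 150-base correction, so that test could not show an error in either.

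All members are named, then every pathway gene past 2-fold in at least 1 comparison or, where a list had none, its highest, then the 2 nearest profiles of each member past 2-fold, with markers where their list is reported. Pappa, Insr and Igfals fall outside this rule, and Polr2b is named as an overlapping gene. Of the pathway genes under the rule, 1 is counted but not reported here. The members, lists and rules were chosen with earlier results of these data known. Alternatives were no filter, thresholds of 1.5-fold and 4-fold, pseudocounts of 0.1 and 5, and 3 scalings (upper quartile, median of ratios and TPM). Intervals on the longest matched transcript were added after the data were seen.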

Additional observations from a re-analysis of the deposited data

How the results depend on the processing

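No paired analysis was possible because a condition had only 1 library. The fall of both ligands in Ti and in Ti+Se-Met passed 2-fold with every pseudocount, filter and scaling run, while at 4-fold 0 members passed in either comparison with CTL in place of 2. The members' median in Ti against CTL was -0.55 under TPM and -0.45 under the upper quartile in place of -0.32, and in Ti+Se-Met against CTL it was -0.41 under TPM in place of -0.21. These scalings divide each library by 1 factor and so move all genes together. Of the 88 pathway genes kept, 37 passed 1.5-fold and 2 passed 4-fold in Ti against CTL, in place of 18. In Ti+Se-Met against CTL these counts were 35 and 2 in place of 17. In Ti+Se-Met against Ti, 2 passed 1.5-fold in place of 0. At 1.5-fold, 26.8%, 22.2% and 2.14% of all genes passed in the same comparisons. The all-gene share at 4-fold was not computed. Of 24 member ratios, 20 kept their sign under all alternatives. The exceptions were Igf1r in Ti+Se-Met against CTL, Igfbp4 in both comparisons with CTL and Igfbp6 in Ti+Se-Met against Ti, none beyond 0.15 on the log2 scale with the deposited values. Ti+Se-Met was the shallowest library, so Igfbp5 at 89 fragments, and the ligands on their shortest transcripts, were the least precise values there.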
